A study of Mus musculus with 6 samples.

Results

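C-type lectin receptors are proteins that carry a C-type lectin-like domain and bind glycans, lipids or proteins on microbes, dying cells and other host cells. On macrophages and dendritic cells they fall into activating receptors that signal through ITAM-bearing adaptors such as FcRγ or DAP12 and the kinase Syk, inhibitory receptors that recruit phosphatases through an ITIM, and endocytic receptors that carry glycosylated cargo to lysosomes and antigen processing. Many of their genes lie in clusters, and in the mouse several of these clusters hold recent duplicates. Here the family was taken as the protein-coding genes of the deposited tables whose symbols begin with Clec, Colec or Cd209, together with Mrc2, Mgl2, Cd207, Cd302, Cd69 and Ly75, where the 6 libraries together held at least 10 counts. The rule gave 37 members out of 14776 genes tested.

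The libraries were bulk RNA-seq of tumor-associated macrophages (TAMs) sorted by flow cytometry from intradermal YUMM1.7 tumors, a transplanted mouse melanoma cell line, in untreated wild-type female C57Bl/6J mice that were 8 weeks old at tumor induction. Tumors were taken on day 21. Live CD45+ CD11b+ cells without lineage markers were split by the macrophage surface protein F4/80 into F4/80high and F4/80low TAMs, with 3 libraries of each subset. Each replicate number stands for 1 independent experiment on 10 pooled tumors, so a library is a pool and not an animal, and the subsets were compared within the replicate pairs. The study's PCA drawing places replicates 1 and 2 in one batch and replicate 3 in another. The libraries held 16045281 to 43604373 counts, and 3 counts were worth 0.0582 to 0.342 counts per 1000000 (CPM, with library sizes scaled by TMM factors). In batch 2 a smaller share of the counts fell on protein-coding genes, 89.4% and 90.02%, against 97.4% to 98.1% in batch 1. The TMM factors were 0.646 and 0.602 in batch 2 and 1.21 to 1.34 in batch 1. Ratios of CPM between batches depend on this scaling. All 10 macrophage markers examined were measured. Of these, 8 had positive log2 fold changes in F4/80high and 2, Itgam and Cd14, negative ones. C1qa and Mertk were called higher in F4/80high, where 0.23% of all genes were. Adgre1, which encodes F4/80 and so reports on the gate itself, was not called (log2 fold change 0.62, SE 0.21, edgeR adjusted p = 0.35). It had 273, 539 and 360 CPM in F4/80high and 243, 326 and 183 CPM in F4/80low replicates 1, 2 and 3.

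Of 43 genes with a symbol of the family in the tables, 6 were not members. Colec11, Clec2e, Clec18a and Clec14a were protein-coding but had 9, 3, 1 and 0 counts in all, under the limit of 10. The lowest members were Clec4g with 24 counts and Cd209b with 26. Clec2f and Clec7a had another biotype in the tables. Clec7a encodes Dectin-1, the β-glucan receptor, and was left out only because the tables list it as a polymorphic pseudogene. It had 224, 206 and 239 CPM in F4/80high and 395, 253 and 274 CPM in F4/80low replicates 1, 2 and 3. Every F4/80low library was above every F4/80high library, and in a fit on all biotypes the log2 fold change was -0.41 (SE 0.20, n = 3 per subset, edgeR adjusted p = 0.676).

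The libraries held RNA of a narrow part of the family at high levels. Per kilobase of gene length, 13 members averaged 10 CPM or more over the 6 libraries and 15 averaged under 1, with a range from 0.0407 for Clec4g to 211.9 for Clec4e. Of the 37 members, 25 had counts in all 6 libraries and 11 had fewer than 100 counts in total. The 5 highest were Clec4e (Mincle), Clec4n (Dectin-2), Clec4a3, Clec4a1 and the activation antigen Cd69, at 211.9, 142.9, 115.5, 84.1 and 79.1 CPM per kilobase. Of these, Clec4a3 was the most even across libraries, and the order of the others was not the same in both batches. In the batch 1 libraries Clec4n ranked 1 and Clec4e 4, and in the batch 2 libraries Clec4e ranked 1 and Clec4n 5. Clec7a, left out by its biotype alone, averaged 116 CPM per kilobase, about the level of Clec4a3.

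**Figure D1:**
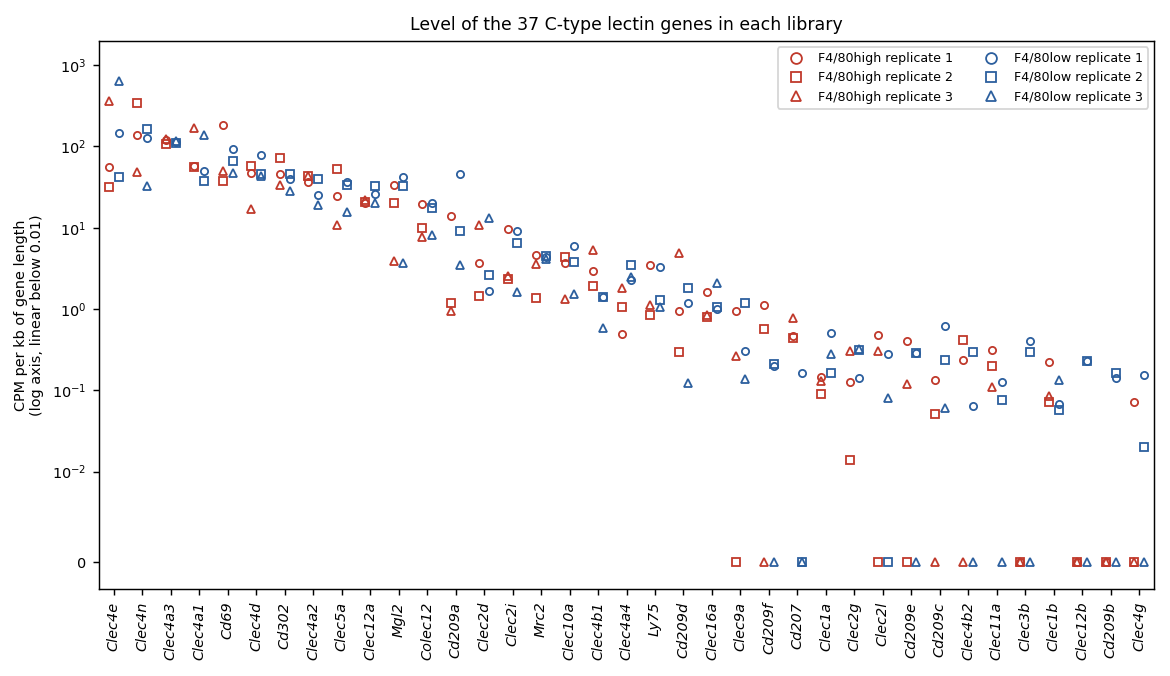
Level of each of the 37 members in each library as CPM per kilobase of gene length (log axis, linear below 0.01), ordered from the highest mean to the lowest. Red points are F4/80high and blue points F4/80low libraries, with 1 shape per replicate. The points of both subsets interleave for most members, and Clec12b, Clec3b and Cd209b are at 0 in all F4/80high libraries.

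Between the subsets, 1 of the 37 members passed the test. Cd209a was lower in F4/80high TAMs, no member was called higher, and of all 14776 genes 0.514% were called in either direction (0.284% lower and 0.23% higher in F4/80high, by edgeR with the replicate pairs as a block, where a call needs a log2 fold change beyond 1 in size and an adjusted p under 0.05). An unadjusted p under 0.05 was reached by 4 members, 10.8% of the family against 9.84% of all genes (3.96% higher and 5.88% lower in F4/80high). They were Clec4n and Clec4a2, higher in F4/80high, and Cd209a and Clec4e, lower. All 3 pairs pointed one way for 14 members, 37.8% against 31.7% of all genes, with 7 in each direction (16% and 15.7% of all genes were higher and lower). The subsets did not overlap for 4 members, 10.8% against 5.16% of all genes (2.27% higher and 2.88% lower). Those were Cd207 and Clec4b1, higher in F4/80high, and Clec4a4 and Clec1a, lower. By the fitted log2 fold change 14 members were higher and 23 lower in F4/80high TAMs, against 7326 and 7450 of all genes. The median was -0.28 against -0.005 over all genes. Of the 23, Clec12b, Clec3b and Cd209b had 0 counts in every F4/80high library. They passed the filter of 10 counts through F4/80low alone, so their direction was fixed in advance. With the batch in place of the replicate block, 0 members and 0 genes were called (edgeR), with 1118 genes at an unadjusted p under 0.05. DESeq2 called 1 member with the block, Cd209a, where 2.73% of 13057 genes were called (1.01% higher and 1.72% lower), and 0 members with the batch, where 1.15% were called (0.352% higher and 0.797% lower).

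**Figure D2:**
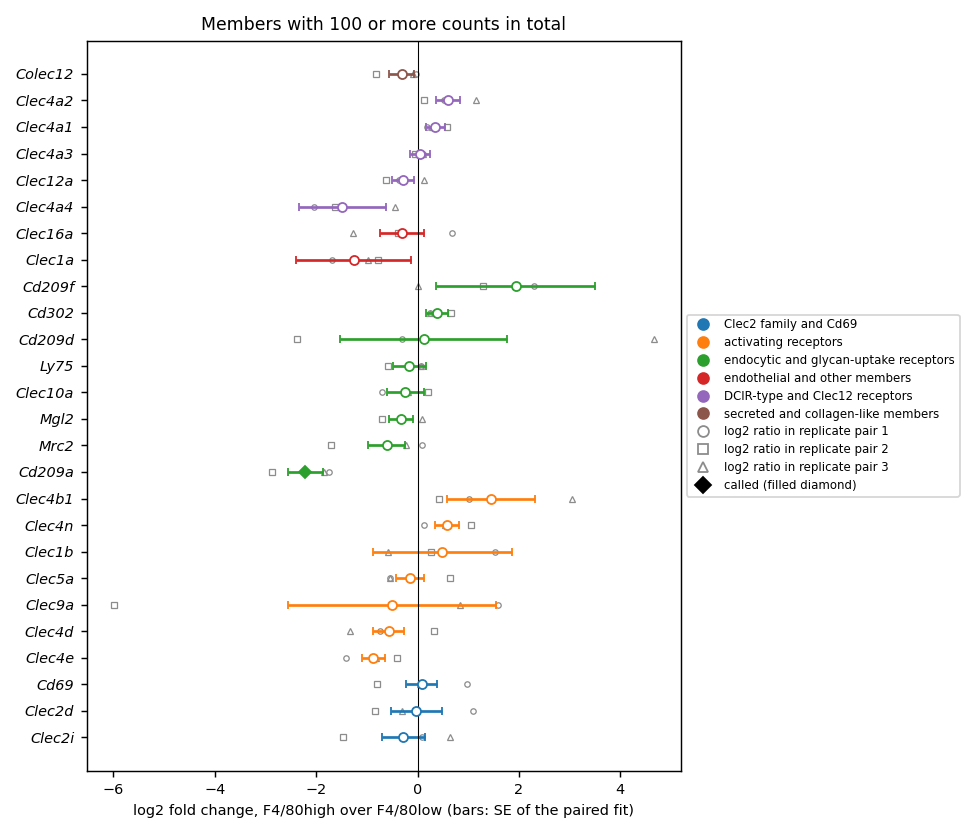
Log2 fold change of F4/80high over F4/80low for the members with 100 or more counts in total, grouped and colored by role. Bars are the SE of the paired fit and gray symbols are the log2 ratios of the 3 replicate pairs. Cd209a at -2.21 is the only filled diamond, the mark of a called gene.

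Cd209a encodes a mouse relative of human DC-SIGN, an endocytic receptor for mannose and fucose that is best known from dendritic cells and from monocytes that turn into them. It had 20.5, 1.785 and 1.404 CPM in F4/80high replicates 1, 2 and 3 and 68.8, 13.5 and 5.24 CPM in the F4/80low replicates. The experiments differed more than the subsets did, so that F4/80high replicate 1 lay above F4/80low replicates 2 and 3, but within each pair the F4/80high library was the lower one. The log2 ratios of the pairs were -1.74, -2.88 and -1.85, and the fitted log2 fold change was -2.21 (SE 0.34, n = 3 pairs, edgeR adjusted p = 0.0377). Without the block the estimate with the batch was -1.89 (SE 0.85, edgeR adjusted p = 0.674). The call was lost without replicate 1 (log2 fold change -2.45, edgeR adjusted p = 0.0753) and without replicate 2 (-1.83, edgeR adjusted p = 0.0507). In bulk libraries fewer cells that transcribe a gene and less RNA of it per cell cannot be told apart.

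Several lists of markers of other cells were also mostly lower in F4/80high, as Cd209a was. Of 15 dendritic cell markers, 13 were lower in F4/80high, 8 with an unadjusted p under 0.05, with a median log2 fold change of -0.79. Their summed level was 410 to 959 CPM in F4/80high and 833 to 1560 CPM in F4/80low libraries, and none was at 0 in all libraries. A large part of this sum was Cd24a alone. It had 338, 151 and 181 CPM in F4/80high and 629, 869 and 453 CPM in F4/80low replicates 1, 2 and 3. The chemokine Ccl22 was the called gene of the list (log2 fold change -1.56, SE 0.24, edgeR adjusted p = 0.0363). All 7 monocyte markers had negative log2 fold changes, with a median of -0.73, and Vcan was the called gene. They summed to 1917 to 5133 CPM in F4/80high and 2625 to 8878 CPM in F4/80low libraries. The monocyte sum did not follow Cd209a throughout. In pair 2 it was higher in F4/80high (2691 against 2625 CPM). In both subsets it was highest in replicate 3, where Cd209a was lowest. Further from the macrophage lineage, all 8 eosinophil, all 8 mast cell and basophil and all 6 fibroblast markers also had negative log2 fold changes, with medians of -1.55, -1.27 and -0.63 and 0 called in each list (edgeR), and 6, 4 and 3 with an unadjusted p under 0.05. They summed to 175 to 522, 9.88 to 118 and 438 to 1526 CPM in F4/80high and to 386 to 1498, 47.5 to 426 and 1047 to 1887 CPM in F4/80low libraries. The neutrophil markers, given with Clec4e, were lower as well. Other lists went the opposite way. All 9 T and NK cell markers tested had positive log2 fold changes, as did 8 of 10 macrophage markers, with 2 negative. The part of any of these cells in the Cd209a difference was not tested.

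**Figure D3:**
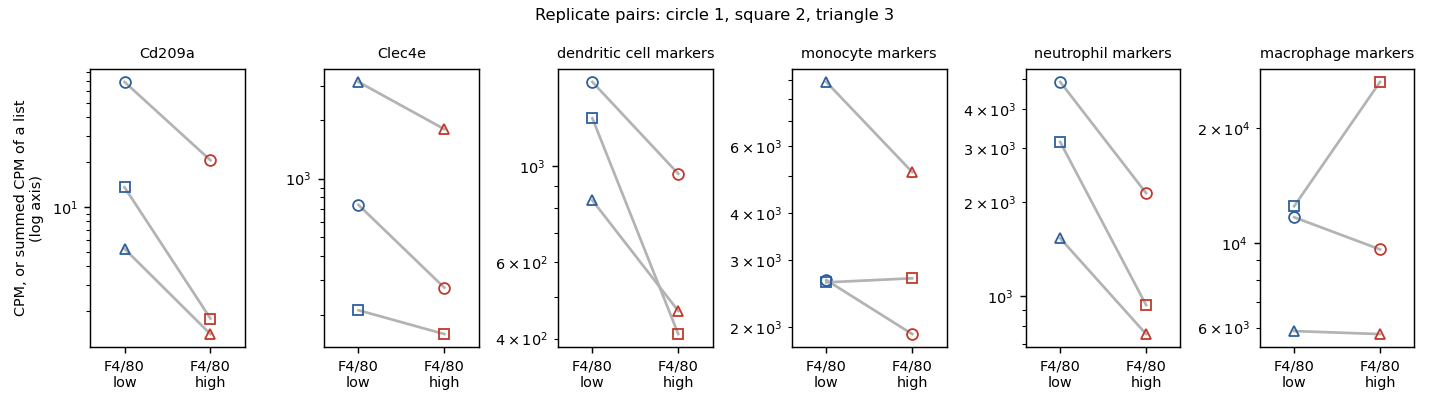
CPM of Cd209a and Clec4e and summed CPM of 4 marker lists, each with its own log axis. Lines join the F4/80low (blue) and F4/80high (red) libraries of a replicate pair, marked by a circle for replicate 1, a square for 2 and a triangle for 3. Cd209a, Clec4e and the dendritic cell and neutrophil lists are lower in F4/80high in all 3 pairs, the monocyte list is lower in pairs 1 and 3, and the macrophage list does not move one way.

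The promoters of the members with an unadjusted p under 0.05 are shown because these 4 genes had the smallest p of the family. RefSeq promoter sequences (GRCm38.p6, 250 bases before to 50 after the start of the gene, 5′ to 3′ on the gene's strand) were at hand for 29 of the 37 members and for 3 of these 4. They were Cd209a at chr8:3748935-3749234 on the minus strand, Clec4e at chr6:123289822-123290121 on the minus strand and Clec4a2 at chr6:123122440-123122739 on the plus strand. The Clec4a2 window lies at the RefSeq start, which is inside the gene as GENCODE M21 draws it (chr6:123106428-123143999, plus strand), so it is not the promoter of the longest annotated form. Capitals mark matches, on either strand, to a PU.1 motif (GAGGAAGT), an AP-1 motif (TGANTCA), a C/EBP motif (TTGCNNAA) and a TATA box (TATAAA).
Cd209a: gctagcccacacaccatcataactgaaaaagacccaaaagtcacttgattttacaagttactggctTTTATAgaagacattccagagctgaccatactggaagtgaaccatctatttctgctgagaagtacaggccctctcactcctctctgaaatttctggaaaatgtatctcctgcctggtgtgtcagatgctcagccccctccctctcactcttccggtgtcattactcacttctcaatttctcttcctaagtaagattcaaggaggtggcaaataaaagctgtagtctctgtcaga
Clec4e: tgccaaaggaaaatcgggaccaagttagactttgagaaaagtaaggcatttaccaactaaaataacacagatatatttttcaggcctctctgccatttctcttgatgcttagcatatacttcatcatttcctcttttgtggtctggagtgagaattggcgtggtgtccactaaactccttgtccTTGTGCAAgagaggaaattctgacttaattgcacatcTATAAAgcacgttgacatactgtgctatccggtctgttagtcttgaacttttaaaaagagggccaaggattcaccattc
Clec4a2: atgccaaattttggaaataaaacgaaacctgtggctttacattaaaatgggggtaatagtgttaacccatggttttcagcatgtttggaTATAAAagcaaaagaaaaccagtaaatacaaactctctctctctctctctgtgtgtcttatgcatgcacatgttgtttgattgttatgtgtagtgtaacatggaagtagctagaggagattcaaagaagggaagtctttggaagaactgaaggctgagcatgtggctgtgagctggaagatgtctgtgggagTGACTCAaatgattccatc
The Cd209a window held the TATA letters on the opposite strand, with the first base at position -184 from the start. The Clec4e window held the C/EBP letters at -66 and the TATA letters at -29. The Clec4a2 window held the TATA letters at -161 and the AP-1 letters 32 bases into the transcript. Over 27025 promoters of the same length, 3.28% held the PU.1, 7.93% the AP-1, 10.8% the C/EBP and 14.2% the TATA letters. Among the 29 promoters of members the counts were 0, 5, 8 and 8.

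Among the 8 activating receptors none was called, and 4 were higher and 4 lower in F4/80high TAMs. Clec4e encodes Mincle, which couples to FcRγ and senses mycobacterial glycolipid and material from dead cells. It had 275, 159 and 1795 CPM in F4/80high replicates 1, 2 and 3 and 733, 211 and 3138 CPM in the F4/80low replicates. F4/80high was the lower library in each pair, by a log2 ratio of -1.41, -0.41 and -0.81, and the subsets overlapped across experiments. The log2 fold change was -0.87 (SE 0.22, n = 3 pairs, edgeR adjusted p = 0.159). DESeq2 with the block gave an adjusted p = 0.015 at the same size, under the fold limit. Without replicate 2 the change was -1.15 and was called (edgeR adjusted p = 0.0397).

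Clec4e also had the largest ratio between batches of the 37 members. Its mean in the batch 2 libraries was 7.16 times that in the batch 1 libraries. Of 11966 genes with at least 1 CPM in batch 1, 5.01% had a ratio as high or higher, and their median ratio was 0.813. The neutrophil markers, of which all 10 were lower in F4/80high and 6 were called, summed to 752 to 2144 CPM in F4/80high and 1532 to 4899 CPM in F4/80low, and were lowest in both subsets in replicate 3, where Clec4e was highest. None of the 10 was at 0 in all libraries, and their part in the Clec4e values was not tested.

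Clec4d, the neighbor of Clec4e, encodes MCL, a partner of Mincle. It had 63.1, 76.2 and 22.9 CPM in F4/80high and 106, 60.6 and 57.7 CPM in F4/80low replicates 1, 2 and 3. Pairs 1 and 3 were lower in F4/80high and pair 2 was higher (log2 fold change -0.57, SE 0.31, edgeR adjusted p = 0.623). Clec4d did not share the high level of Clec4e in batch 2, with a ratio of batch 2 to batch 1 of 0.528.

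Clec4n encodes Dectin-2, a mannan receptor that signals through FcRγ. It had 198, 488 and 68.7 CPM in F4/80high and 182, 235 and 47.0 CPM in F4/80low replicates 1, 2 and 3. All 3 pairs were higher in F4/80high, with pair 2 the most (log2 fold change 0.58, SE 0.23, edgeR adjusted p = 0.436). Clec4b1, which encodes an FcRγ-coupled relative of the DCIR receptors, had 2.29, 1.51 and 4.21 CPM in F4/80high and 1.10, 1.11 and 0.456 CPM in F4/80low. The subsets did not overlap, at 4 to 91 counts a library (log2 fold change 1.45, SE 0.86, edgeR adjusted p = 0.656). The DAP12-coupled Clec5a had 41.0 to 204 CPM in F4/80high and 59.7 to 139 CPM in F4/80low (log2 fold change -0.15, SE 0.27). Clec4b2 and Clec1b, the latter known from platelets, had at most 1.13 CPM in any library. Clec9a, which marks type 1 conventional dendritic cells and binds actin of dead cells, had 124, 0 and 8 counts in F4/80high and 40, 161 and 4 counts in F4/80low replicates 1, 2 and 3, with no common direction.

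The 4 DCIR genes and the Clec12 pair gave no call either. Clec4a2 encodes DCIR1, an inhibitory receptor with an ITIM. It had 104, 123 and 123 CPM in F4/80high and 71.7, 113 and 54.8 CPM in F4/80low replicates 1, 2 and 3. Each pair was higher in F4/80high, pair 2 by a log2 ratio of only 0.12, and the subsets overlapped, since F4/80low replicate 2 exceeded F4/80high replicate 1 (log2 fold change 0.60, SE 0.24, edgeR adjusted p = 0.449). Clec4a1 had 88.5, 86.5 and 261 CPM in F4/80high and 77.6, 58.1 and 215 CPM in F4/80low, higher in F4/80high in each pair (log2 fold change 0.35, SE 0.19, edgeR adjusted p = 0.63). Clec4a3 was level, at 160, 143 and 165 CPM in F4/80high and 149, 147 and 155 CPM in F4/80low (log2 fold change 0.05, SE 0.19, edgeR adjusted p = 0.96). Clec4a4, which encodes the other ITIM-bearing DCIR of the mouse, went the opposite way to Clec4a2 at a low level. It had 15, 43 and 13 counts in F4/80high and 70, 110 and 17 counts in F4/80low, with no overlap in CPM (log2 fold change -1.48, SE 0.85, edgeR adjusted p = 0.641). The inhibitory receptor Clec12a had 104 to 112 CPM in F4/80high and 103 to 167 CPM in F4/80low (log2 fold change -0.29, SE 0.22). Clec12b had 0 counts in every F4/80high library and 15, 15 and 0 counts in the F4/80low replicates, too few for a fold.

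Read by position, the 9 members of the Dectin-2 cluster on chromosome 6, which runs from Clec4a1 to Clec4e, split into 6 higher and 3 lower in F4/80high, with a median log2 fold change of 0.35. The other cluster on chromosome 6, which holds most Clec2 genes and the Clec12, Clec1 and Clec9a genes with Cd69, had 2 of 9 members higher and a median of -0.29. The Cd209 cluster on chromosome 8, Clec4g included, had 2 of 7 members higher and a median of -1.82. That median is the value of Clec4g itself (SE 2.54), with 24 counts in total. Of the 6 genes besides Cd209a, 4 had fewer than 100 counts in total. Genes of these clusters are near copies of each other, and how the counting treated reads that fit several of them is not given in the sources used here.

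Of the 13 endocytic and glycan-uptake receptors, Cd209a was the called one, and 4 were higher and 9 lower in F4/80high TAMs. Cd302, a short endocytic receptor of macrophages, had 62.9, 98.5 and 45.0 CPM in F4/80high and 53.2, 62.1 and 38.0 CPM in F4/80low replicates 1, 2 and 3. It was higher in F4/80high in each pair, by less than the experiments differed (log2 fold change 0.39, SE 0.22, edgeR adjusted p = 0.631). The galactose-type receptors Mgl2 and Clec10a had log2 fold changes of -0.33 (SE 0.24) and -0.24 (SE 0.36), and the mean of Mgl2 in batch 2 was 0.119 times that in batch 1. Mrc2, a collagen receptor, had 9.12 to 31.3 CPM in F4/80high and 27.7 to 30.0 CPM in F4/80low, and its low library was F4/80high replicate 2 (log2 fold change -0.61, SE 0.37, edgeR adjusted p = 0.664). Ly75, the antigen receptor DEC-205, differed by -0.16 (SE 0.32).

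Cd207 encodes langerin, the Birbeck granule lectin of Langerhans cells and some dermal dendritic cells. It had 28, 35 and 11 counts in F4/80high and 10, 0 and 0 counts in F4/80low replicates 1, 2 and 3. Every F4/80high library lay above every F4/80low library in CPM, 0.679 to 1.19 against 0 to 0.251 (log2 fold change 4.21, SE 2.04, edgeR adjusted p = 0.567), a size that depends on the libraries at 0. The 4 other Langerhans cell markers examined went the opposite way. All 4 were lower in F4/80high in 3 of 3 pairs, with sums of 20.3 to 55.8 CPM against 72.7 to 115 CPM, a median log2 fold change of -1.21, 0 called and 2 with an unadjusted p under 0.05.

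The other Cd209 genes had low counts, no more than 68 in any library. Cd209b, a receptor of splenic marginal zone macrophages, had 0 counts in all F4/80high libraries and 12, 14 and 0 counts in the F4/80low replicates. In the F4/80high libraries, 3 counts were worth 0.0756, 0.0582 and 0.324 CPM, which is the level that a count of 0 still allows. Cd209c was lower in F4/80high in each pair at 0 to 47 counts, and Cd209f had 68, 45 and 0 counts in F4/80high against 12, 13 and 0 in F4/80low. Cd209d was higher in F4/80high in pair 3 alone, with 41 counts against 1, and Cd209e and Clec4g had no more than 29 counts in any library.

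Cd69, which holds lymphocytes in tissue and also appears on activated myeloid cells, had 294, 61.5 and 80.4 CPM in F4/80high and 150, 107 and 77.5 CPM in F4/80low replicates 1, 2 and 3. The log2 ratio was 0.97 in pair 1, -0.80 in pair 2 and 0.05 in pair 3, and the fitted change was 0.08 (SE 0.31, edgeR adjusted p = 0.969). Without replicate 1 the sign turned, to -0.38. The T and NK cell markers (0 of 9 called) also had their larger sum in F4/80high in pairs 1 and 3 and in F4/80low in pair 2, at 1760, 512 and 305 CPM summed in F4/80high and 626, 804 and 152 CPM in F4/80low, and their part in the Cd69 values was not tested. Clec2d and Clec2i, ligands of NK cell receptors, differed by -0.02 (SE 0.50) and -0.28 (SE 0.42). Clec2d had 13.0 and 15.9 CPM in the batch 2 libraries and 1.77 to 4.44 CPM in batch 1. Clec2g and Clec2l stayed under 1 CPM.

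The secreted and collagen-like members Colec12, Clec11a and Clec3b and the remaining Clec16a and Clec1a held no called gene. Colec12, a scavenger receptor, had 25.5 to 66.0 CPM in F4/80high and 27.0 to 67.5 CPM in F4/80low (log2 fold change -0.31, SE 0.25). Clec3b, which encodes the plasma protein tetranectin, had 0 counts in all F4/80high libraries and 16, 12 and 0 counts in the F4/80low replicates. Clec11a, a secreted growth factor for bone and blood progenitors, was higher in F4/80high in each pair at 0 to 24 counts. Clec1a had 19, 15 and 4 counts in F4/80high and 67, 22 and 8 counts in F4/80low, without overlap in CPM (log2 fold change -1.26, SE 1.13, edgeR adjusted p = 0.772). Clec16a, an autophagy gene that shares the name but is no surface lectin, differed by -0.31 (SE 0.43).

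Summed over the 37 members, the family took 1729, 1674 and 2828 CPM in F4/80high and 2138, 1526 and 4070 CPM in F4/80low replicates 1, 2 and 3. In pairs 1 and 3 the F4/80low library had the larger sum, and in pair 2 the F4/80high library did. Clec4e made up 9.49% to 63.5% of it in F4/80high and 13.8% to 77.1% in F4/80low. Without Clec4e, a sum looked at after the values were known, the family took 1454, 1515 and 1032 CPM in F4/80high and 1405, 1315 and 931 CPM in F4/80low, a little more in F4/80high in each pair.

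**Figure D4:**
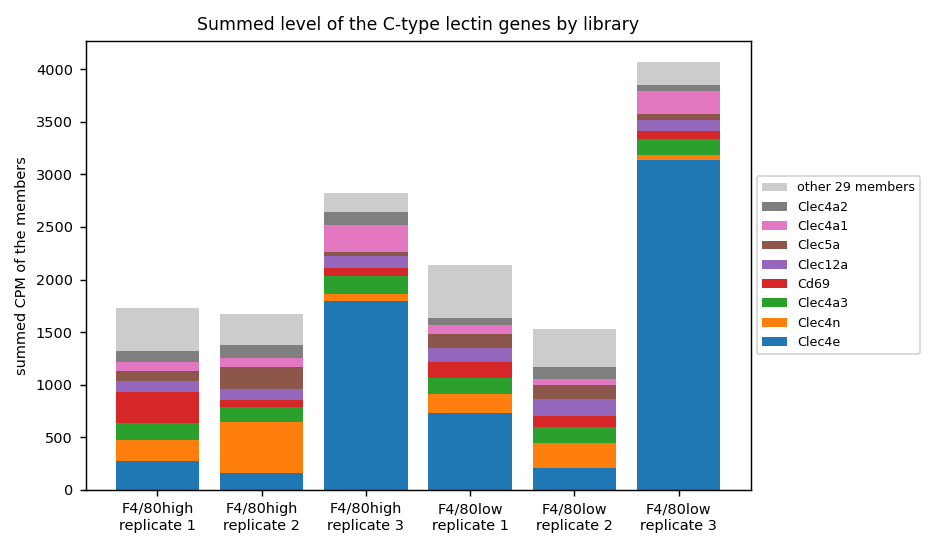
Summed CPM of the 37 members in each library, split into the 8 members with the highest mean share and the other 29. The replicate 3 bars are the tallest of each subset, and the blue Clec4e segment makes up 63.5% and 77.1% of them.

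Of 35 adaptors, kinases and cytokines downstream of these receptors, 0 were called (edgeR), 8 had an unadjusted p under 0.05, 22.9% against 9.84% of all genes. DESeq2 called 1 with the block and 1 with the batch, and edgeR called 1 with library size alone, with a minimum of 1 count, without replicate 1 and without replicate 2. Lower in F4/80high were 25 of the 35, with a median log2 fold change of -0.18 against -0.005 over all genes. Syk, the kinase that the ITAM-coupled lectins share, had 221, 144 and 548 CPM in F4/80high and 419, 220 and 900 CPM in F4/80low replicates 1, 2 and 3. It was lower in F4/80high in each pair (log2 fold change -0.75, SE 0.18, edgeR adjusted p = 0.144). The Src family kinase Fgr had the smallest adjusted p of the list, 154, 116 and 91.2 CPM against 330, 212 and 231 CPM, and the subsets did not overlap (log2 fold change -1.10, SE 0.20, edgeR adjusted p = 0.0542). The cytokine Il1b differed by -0.64 (SE 0.20, edgeR adjusted p = 0.308). Higher in F4/80high with the smallest p were Il10 (0.84, SE 0.30, edgeR adjusted p = 0.377), Tnf (0.64, SE 0.24, edgeR adjusted p = 0.408) and Nfatc2 (0.50, SE 0.30, edgeR adjusted p = 0.665).

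Outside the naming rule, 29 further genes with a C-type lectin-like domain were tested, and 2 of them were called, where 0.514% of all genes were. An unadjusted p under 0.05 (edgeR) was reached by 10 of the 29, 34.5% against 9.84% of all genes. Of these, 4 were higher and 6 lower in F4/80high. Mrc1 encodes the mannose receptor CD206, a relative of Mrc2 and Ly75. It had 276, 840 and 1311 CPM in F4/80high and 73.4, 254 and 159 CPM in F4/80low replicates 1, 2 and 3, and the lowest F4/80high library lay just above the highest F4/80low library (log2 fold change 2.22, SE 0.28, edgeR adjusted p = 0.0281). Vcan, which encodes the matrix proteoglycan versican, had 38.3, 11.4 and 135 CPM against 122, 60.8 and 384 CPM, lower in F4/80high in each pair (log2 fold change -1.86, SE 0.24, edgeR adjusted p = 0.0281). Cd72, an inhibitory receptor best known from B cells, was higher in F4/80high in each pair, short of the threshold (1.04, SE 0.20, edgeR adjusted p = 0.0644). Cd93 and Cd44 differed by 0.88 (SE 0.25) and -0.66 (SE 0.19).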

How the data were processed

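RNA-seq was done on 3 F4/80high and 3 F4/80low libraries. The authors deposited a table of raw read counts per gene for each library, with gene length and biotype, made by the standard pipeline of their sequencing center. Aligner, build, annotation and strand are not given in the sources used here. Gene positions came from GENCODE M21 (GRCm38), which held 99.3% of the gene IDs.

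The 14776 protein-coding genes with at least 10 summed counts were fitted with edgeR 4.0.16 in R 4.3.3 (quasi-likelihood test, TMM, replicate number as a block, Benjamini-Hochberg adjustment), and calls needed a log2 fold change beyond 1 in size at an adjusted p under 0.05. Pair ratios used a prior count of 2. DESeq2 1.42.0, the batch term and other settings were alternatives. Replicate numbers mark the experiments, with both subsets from the same tumors. Same-numbered libraries deviated together (correlations 0.745, 0.729 and 0.907 over 10089 genes). Replicate 3 alone made up batch 2, so these correlations cannot tell the pairing from the batch. The 3-count level covers counting error only. Members and lists were chosen with earlier results of these data known.

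Values in each library are given for called members, the 6 with the smallest p in each direction and the 5 highest per kilobase, and the log2 fold change for up to 3 genes per direction of the signalling and lectin-domain lists. A gene of the last list is not reported here. Clec7a, Clec4a4, Clec1a and Clec9a were added after their values were seen, as were the promoters and motifs. Of the marker lists not given with a result, the endothelial (0 of 4), melanoma (0 of 3) and B and plasma cell lists (0 of 6) held no called gene, and the platelet list held 1 of 5 (Pf4, higher in F4/80high).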

Additional observations from a re-analysis of the deposited data

How the results depend on the processing

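The fit with the block called 76 genes. With no replicate block and the batch as the term 0 genes were called, with neither 0, with filterByExpr 16 and over all biotypes 27, all of these among the 76. DESeq2 called 357 with the block and 150 with no block and the batch, which held 76 and 40 of the 76. Leaving out a replicate pair gave 23 (without replicate 3) to 380 (without replicate 1), with 107 without replicate 2, and leaving out a single library in the batch fit gave 0 to 55, with 55 without F4/80high replicate 1. Of the members, 1 was called with the block, and 0 with the batch and no replicate block, with neither term, by DESeq2 with the batch, with filterByExpr and over all biotypes. Leaving out pairs gave 0 to 1 called members, Clec4e in place of Cd209a without replicate 2, and leaving out single libraries gave 0. Cd209a kept its direction under all 18 alternatives, from -3.60 to -0.91, and was called under 5 of them. It missed the threshold narrowly with filterByExpr (edgeR adjusted p = 0.0556) and over all biotypes (0.0586). Cd69 ranged from -0.38 to 0.49 over the fits without a replicate pair, and from -0.58 (without F4/80high replicate 1) to 0.70 (without F4/80high replicate 2) over the batch fits without a single library. The other 12 members given by library kept their direction. For Clec12b, Clec3b and Cd209b, at 0 counts in every F4/80high library, no setting could have turned it. Of 249 alternative values of the 14, 13 lost a call, all of Cd209a, and 1 gained it. The cause was not tested. Low counts limit the 11 members with fewer than 100 counts.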
